A study of Mus musculus with 64 samples.

Results

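The 9 receptor genes described here encode dopamine receptors (Drd1, Drd2 and Drd5), alpha-1 adrenergic receptors (Adra1a, Adra1b and Adra1d), alpha-2 adrenergic receptors (Adra2a and Adra2c) and a beta adrenergic receptor (Adrb1). They were taken by gene symbol from 3 tables of brain RNA levels. All 9 are listed among 15697 genes in prefrontal cortex and among 16155 in hypothalamus. The table for hippocampus lists 8 of them among 15573, and the gene it lacks is Drd2. A table for whole blood of the same study lists 0 of the 9 and was not used further.

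The animals were male BALB/c mice aged 28 weeks. One group of 8 was exposed for 9 weeks to UCMS (Unpredictable Chronic Mild Stress), a schedule of varied mild stressors used as a rodent model of depression, and a control group of 8 was left unstressed. Collection fell between 14 and 16 hours after stress ended, at ZT12.5 to ZT14.5 (ZT is time in hours after lights on). Each region therefore had 8 control and 8 UCMS libraries, 48 in all, from 16 mice. The comparison asked whether receptor RNA differs between stressed and unstressed mice in each region.

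Dopamine and noradrenaline act through receptors that couple to G proteins. D1-class receptors (Drd1, Drd5) and beta receptors couple to stimulatory G proteins and raise cAMP. D2-class receptors (Drd2) and alpha-2 receptors couple to inhibitory G proteins and lower it, while alpha-1 receptors couple to Gq and phospholipase C. In the brain Drd1 and Drd2 are most abundant in the projection neurons of the striatum, and Drd2 and Adra2a also serve as autoreceptors on dopamine and noradrenaline neurons.

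Levels were read as log2 values normalized within each table, which was inferred from the values. On that reading a difference of 1 is a doubling. The number of reads behind the levels is unknown. The median level of a library lay between 4.354 and 4.42 in these tables. The tables were taken as normalized separately and the values as not per length, so levels were not tested between regions or compared between genes. As a check of the labelled tissue, 20 of 20 hypothalamic neuron markers were listed in hypothalamus against 6 of 20 in prefrontal cortex and 5 of 20 in hippocampus, and 13 of 13 hippocampal neuron markers were listed in hippocampus against 10 of 13 in each of the other regions. All 11 cortical neuron markers were listed in each region, so that listing does not tell prefrontal cortex from the others. Hemoglobin RNA exceeded a level of 12 in 2 prefrontal cortex, 3 hippocampus and 4 hypothalamus libraries. Control replicate 2 of prefrontal cortex stood apart, with a cortical neuron score (mean z of 11 markers) of -1.64 where the next lowest library had -0.33. Its choroid plexus score was 2.55 where the next highest was 0.55. Values without it are given beside the prefrontal cortex results that it changes most.

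Promoter sequence is shown for 2 of the 7 pairs of receptors that correlated positively across animals in prefrontal cortex, Drd1 with Drd2 and Adra1b with Adrb1. Each is the 200 bases that end 51 bases before a RefSeq start, 5′ to 3′ on the strand of the gene (RefSeq, GRCm38.p6). The Drd1 window is chr13:54055709-54055908 on the minus strand, Drd2 chr9:49340153-49340352 on the plus strand, Adra1b chr11:43901288-43901487 on the minus strand and Adrb1 chr19:56721867-56722066 on the plus strand. Capitals mark matches on either strand to one of these motifs, none of which overlapped another match. The first is the GC box, which Sp1 family factors bind and which is spelled GGGCGG. The next is the core promoter element for the general transcription machinery, spelled TATAAA. The third, known for NF-Y, is spelled CCAAT. The last is only a part of the cAMP response element, which CREB binds, and this part is spelled TGACG. The whole element was not searched for.
Drd1: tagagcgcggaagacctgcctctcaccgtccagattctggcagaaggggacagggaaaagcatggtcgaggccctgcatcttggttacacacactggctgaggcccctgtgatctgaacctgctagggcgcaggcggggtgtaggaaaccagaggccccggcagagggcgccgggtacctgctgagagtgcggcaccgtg
Drd2: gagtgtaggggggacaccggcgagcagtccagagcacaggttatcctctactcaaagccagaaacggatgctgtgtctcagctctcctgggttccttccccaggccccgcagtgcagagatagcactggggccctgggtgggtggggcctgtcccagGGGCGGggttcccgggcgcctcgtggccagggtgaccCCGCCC
Adra1b: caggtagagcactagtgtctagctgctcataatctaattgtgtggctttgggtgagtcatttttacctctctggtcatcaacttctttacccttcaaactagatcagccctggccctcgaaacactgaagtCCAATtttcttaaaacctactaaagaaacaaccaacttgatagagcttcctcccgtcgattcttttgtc
Adrb1: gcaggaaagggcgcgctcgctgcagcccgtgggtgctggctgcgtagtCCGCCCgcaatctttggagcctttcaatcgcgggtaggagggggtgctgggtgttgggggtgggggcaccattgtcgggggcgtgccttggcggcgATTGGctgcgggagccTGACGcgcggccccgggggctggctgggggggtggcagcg

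The Drd2 window holds 2 GC boxes and the Drd1 window 0 matches to any of the motifs. The Adrb1 window holds 1 GC box, 1 NF-Y motif and 1 match to TGACG, and the Adra1b window 1 NF-Y motif. Among 32851 RefSeq promoter windows of the same length, 24.6% hold a GC box, 9.14% the spelling TATAAA, 28.4% the NF-Y motif and 12.7% the spelling TGACG. The windows end 51 bases before the start and leave out the bases nearest it. A match or its absence therefore does not tell whether a promoter has a working core promoter element. The GC content was 63.5% for Drd1, 67.5% for Drd2, 42.5% for Adra1b and 72.5% for Adrb1, against a median of 51.5% over all windows. With 0 matches, the Drd1 window could share no motif with that of Drd2. The Adra1b and Adrb1 windows share the NF-Y motif, with 1 match each. Whether these motifs bear on the correlations was not tested.

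The genes lie on 7 chromosomes in GENCODE's mouse annotation of GRCm38. Drd1 is at chr13:54051183-54055705 on the minus strand with 3 exon blocks, Drd2 at chr9:49340627-49408177 on the plus strand with 8, and Drd5 at chr5:38319367-38322518 on the plus strand with 1. Among the alpha receptors, Adra1a is at chr14:66635251-66771168 (plus), Adra1b at chr11:43774606-43901210 (minus), Adra1d at chr2:131545850-131562283 (minus), Adra2a at chr19:54044151-54048982 (plus) and Adra2c at chr5:35278319-35281763 (plus). Adrb1 is at chr19:56722199-56733113 on the plus strand. Annotated antisense genes overlap exons of Drd5 (Gm26560) and Adra1d (Gm14285). The libraries were directional, but whether counting used strand is not given in the sources used here, so reads of these 2 genes and of their antisense partners may not be told apart.

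Drd1, the main stimulatory dopamine receptor, had its highest mean level in prefrontal cortex (8.12 ± 0.99, SD, n = 16), followed by hippocampus (6.34 ± 0.29) and hypothalamus (5.69 ± 0.37). In prefrontal cortex the control libraries ran from 6.34 through a median of 8.12 to 9.78, and the UCMS libraries from 7.06 through 8.06 to 9.43. The UCMS range lay inside the control range, and the lowest and highest libraries (control replicates 1 and 6) were 10.9-fold apart. In hippocampus controls ran from 6.17 through 6.48 to 6.55 and UCMS from 5.63 through 6.35 to 6.73, so here the controls lay inside the UCMS range. In hypothalamus controls ran from 5.48 through 5.62 to 6.21 and UCMS from 5.13 through 5.48 to 6.32.

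Drd2, the main inhibitory dopamine receptor, had a mean level of 3.82 ± 0.33 in hypothalamus and 3.42 ± 1.16 in prefrontal cortex (SD, n = 16), with overlapping ranges. In prefrontal cortex controls ran from 1.55 through 3.14 to 5.18 and UCMS from 1.45 through 3.70 to 4.82. The extremes were 13.2-fold apart, and both groups held libraries near the bottom and near the top. In hypothalamus the extremes were 2.29-fold apart, with controls from 3.31 through 3.83 to 4.41 and UCMS from 3.21 through 3.93 to 4.14.

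Drd5, the second D1-class receptor, was highest in hippocampus (6.41 ± 0.24), then hypothalamus (5.01 ± 0.25) and prefrontal cortex (3.66 ± 0.67). The hippocampal and hypothalamic ranges did not overlap, which was so for no other neighbouring regions of any receptor. In hypothalamus controls ran from 4.50 through 4.92 to 5.17 and UCMS from 4.71 through 5.17 to 5.34. The groups overlapped, although the UCMS median equalled the highest control to 2 decimals. In hippocampus controls ran from 6.06 through 6.33 to 6.89 and UCMS from 5.99 through 6.48 to 6.82, and in prefrontal cortex controls from 2.88 through 3.55 to 5.34 and UCMS from 2.85 through 3.60 to 4.59.

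The alpha-1 receptors differed from one another in how their levels varied by region. Adra1a was nearly level, with means of 4.91 ± 0.20 in prefrontal cortex, 4.83 ± 0.21 in hypothalamus and 4.75 ± 0.14 in hippocampus. Adra1b had means of 5.69 ± 0.52 in prefrontal cortex, 5.06 ± 0.42 in hypothalamus and 4.73 ± 0.37 in hippocampus. Adra1d was highest in hippocampus (6.91 ± 0.21), then prefrontal cortex (6.39 ± 0.64) and hypothalamus (4.55 ± 1.02). The hypothalamic libraries of Adra1d spanned 9.21-fold, with controls from 2.94 through 4.08 to 6.15 and UCMS from 3.13 through 4.85 to 5.86. In prefrontal cortex its controls ran from 4.20 through 6.57 to 6.98 and its UCMS libraries from 6.26 through 6.47 to 6.91, and the low control was replicate 2. Adra1b had the same low library there, with controls from 4.30 through 5.93 to 6.19 and UCMS from 5.03 through 5.87 to 6.31.

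Adra2a, the main alpha-2 autoreceptor, was highest in hypothalamus (8.44 ± 0.31), then hippocampus (7.58 ± 0.17) and prefrontal cortex (7.24 ± 0.67). Adra2c, the other alpha-2 receptor listed here, was highest in hippocampus (8.36 ± 0.20), then prefrontal cortex (7.87 ± 0.25) and hypothalamus (7.17 ± 0.28). Adrb1 fell in the order prefrontal cortex (8.49 ± 0.36), hippocampus (7.66 ± 0.10) and hypothalamus (6.66 ± 0.36). Neighbouring regions overlapped for each of these 3 receptors. The narrowest spread of any receptor was that of Adrb1 in hippocampus, where controls ran from 7.58 through 7.64 to 7.70 and UCMS from 7.46 through 7.69 to 7.91.

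**Figure D1:**
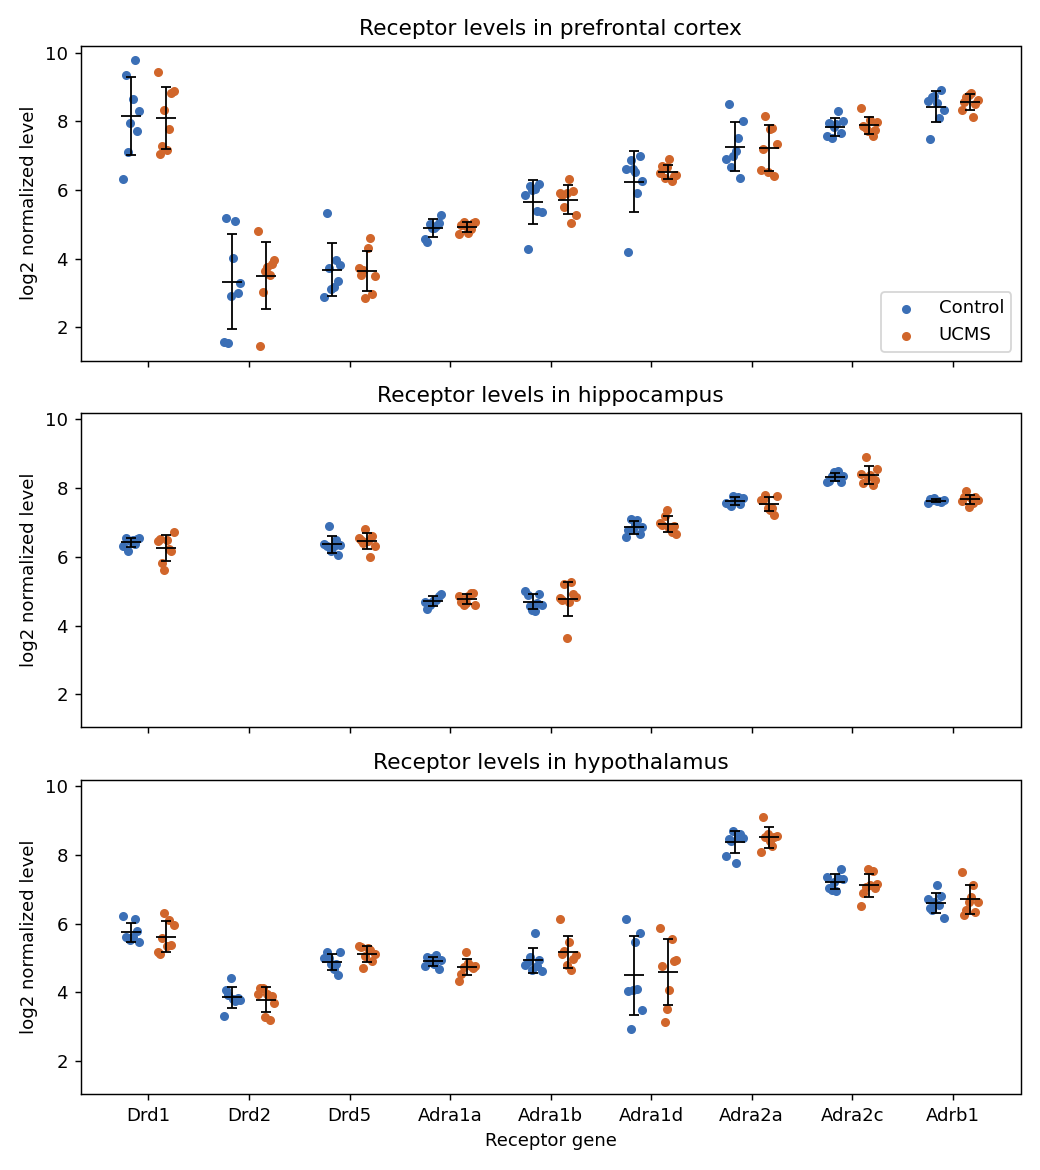
Log2 normalized level (vertical axis) of each receptor gene in prefrontal cortex, hippocampus and hypothalamus; points are libraries, 8 control (blue) and 8 UCMS (orange), and bars are the mean ± SD. Control and UCMS points overlap for every receptor, and the widest spreads are Drd1 and Drd2 in prefrontal cortex and Adra1d in hypothalamus.

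Spread within groups was wide against other genes for several receptors. In prefrontal cortex the within-group SD was 1.02 for Drd1 and 1.20 for Drd2, larger than in 98.8% and 99.2% of 14127 genes, where the median SD was 0.20. Adra1d in hypothalamus had an SD of 1.06, larger than in 98.9% of genes. Adrb1 in hippocampus had an SD of 0.10, larger than in only 13.2% of genes.

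Receptor RNA was not detectably different between UCMS and control mice in any region. Of 26 differences between groups, 0 passed an adjusted p of 0.05 in limma (Benjamini-Hochberg over all genes of the table) and 0 had an unadjusted p under 0.05. The share of all genes called was 0% in each region by the adjusted p, and by the unadjusted p it was 2.18% for prefrontal cortex, 2.95% for hippocampus and 2.12% for hypothalamus. Control and UCMS ranges overlapped in 26 of 26 cases. The share of all genes with overlapping ranges was not computed, so this count does not set the receptors apart from other genes. UCMS means were higher for 6 of 9 receptors of prefrontal cortex, 6 of 8 of hippocampus and 5 of 9 of hypothalamus, with median differences of 0.05, 0.06 and 0.10 on the log2 scale. Without control replicate 2 the count in prefrontal cortex was 5 of 9, and the receptors differed: Adra1a, Adra1b, Adra1d and Adrb1 had lower UCMS means (-0.028, -0.12, -0.011 and -0.0055), and Adra2a, Drd1 and Drd5 higher ones (0.14, 0.12 and 0.21). With any 1 library left out the count there ran from 4 to 9. The median difference over all genes tested was 0.0056 for prefrontal cortex, 0.00037 for hippocampus and 0.00075 for hypothalamus.

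The smallest unadjusted p belonged to Drd5 in hypothalamus, which was 0.22 higher in UCMS (SE 0.11, 95% interval -0.0028 to 0.45, limma unadjusted p = 0.0526, adjusted p above 0.99). A two-sided exact permutation test gave it p = 0.0685, and gave 0 of the 26 differences a p under 0.05. Adra1a in hypothalamus had a difference of -0.17 (SE 0.09, interval -0.37 to 0.03, unadjusted p = 0.0900). Next came Adra1b in hypothalamus at 0.25 (interval -0.15 to 0.65) and Drd1 in hippocampus at -0.17 (interval -0.45 to 0.10). The intervals set what could have been missed. For Adrb1 in hippocampus the interval ran from -0.07 to 0.15. In prefrontal cortex that of Drd2 ran from -0.98 to 1.33 and that of Drd1 from -1.04 to 0.93. A doubling of Drd2 there, or a fall of Drd1 by 1 on the log2 scale, was therefore not excluded.

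**Figure D2:**
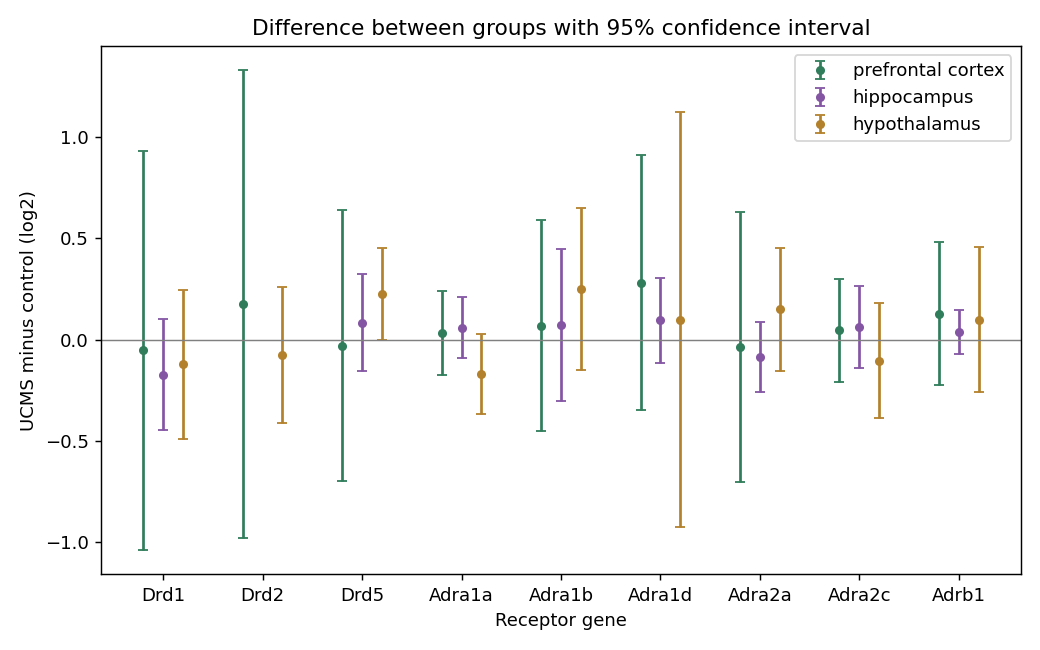
Difference in mean log2 level, UCMS minus control (vertical axis), for each receptor gene; points are the limma estimates in prefrontal cortex, hippocampus and hypothalamus and bars their 95% confidence intervals. Every interval crosses 0, that of Drd5 in hypothalamus by the least (-0.0028 to 0.45).

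Averaging the regions of each mouse gave the same outcome for the 8 receptors listed in all 3 tables. Of these, 0 passed an adjusted p of 0.05, with 0% of all genes called, and 0 had an unadjusted p under 0.05, against 3.62% of all genes. The mean differences ran from -0.12 for Drd1 to 0.16 for Adra1d. The effect of UCMS was also not shown to differ between regions for any receptor. The closest was Adra1a, whose UCMS effect was lower in hypothalamus than in hippocampus by an estimated -0.23 (SE 0.13, limma unadjusted p = 0.101, adjusted p above 0.99). In these interaction tests 0% of all genes were called by the adjusted p, and 1.61% (hippocampus minus prefrontal cortex), 2.43% (hypothalamus minus prefrontal cortex) and 2.26% (hypothalamus minus hippocampus) by the unadjusted p.

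Some receptor pairs correlated across mice, with the highest count in prefrontal cortex and, in hippocampus, a share near that of all gene pairs. Each relation is a correlation of deviations from the group mean over 16 mice, tested with 100000 permutations, two-sided, and adjusted over 100 pairs. In prefrontal cortex 13 of 36 pairs (36.1%) passed an adjusted p of 0.05, 7 positive and 6 negative. Of all gene pairs there, 9.99% had an absolute r as high as the weakest of these 13. Without control replicate 2 the count was 6. In hippocampus 4 of 28 pairs (14.3%) passed against 11.9% of all gene pairs, and in hypothalamus 6 of 36 (16.7%) against 6.02%.

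In prefrontal cortex Drd1 and Drd2 rose and fell together (r = 0.89, rho = 0.90, permutation p = 3e-05, adjusted p = 0.001), and r was 0.84 without the 2 libraries farthest from the median. Adra2c followed both, with r = 0.68 with Drd1 and 0.67 with Drd2 (permutation, adjusted p = 0.025 for each, rho 0.61 and 0.63). Without the 2 farthest libraries these were 0.53 and 0.72, and each missed the threshold when control replicate 1, 3 or 6 or UCMS replicate 1 was left out. Adra1b, Adra1d and Adrb1 formed another group. The correlation of Adra1d with Adrb1 was 0.91 (rho 0.87, permutation p = 1e-05, the smallest that 100000 permutations can give, adjusted p = 0.001). That of Adra1b with Adra1d was 0.89 and that of Adra1b with Adrb1 was 0.86. Without control replicate 2 these 3 were 0.84, 0.81 and 0.71, and each still passed.

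Drd5 correlated negatively with the same 3 adrenergic receptors in prefrontal cortex, with r = -0.69 for Adra1b, -0.70 for Adra1d and -0.73 for Adrb1. These rest on control replicate 2: without it r was -0.39, -0.24 and -0.45, and without that library the count of pairs past the threshold in prefrontal cortex was 6. Drd5 with Adra2a had r = 0.75 (rho 0.70, adjusted p = 0.009 by permutation), and r was 0.64, past the threshold no longer, without that library. The negative relations of Adra2a with Adra1b (r = -0.72) and Adra1d (r = -0.64) became -0.58 and -0.48 and also missed it.

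In hypothalamus Drd1 and Drd2 were related in the opposite direction (r = -0.81, rho = -0.73, permutation p = 0.00019, adjusted p = 0.0038). The difference between the regions in this correlation was not tested. Drd1 correlated with Adra2c (r = 0.75) and Adra1b against Adra2c (r = -0.75), with adjusted p of 0.0099 and 0.009 by permutation and rho of 0.72 and -0.69. Without the 2 farthest libraries r was -0.70 for Drd1 with Drd2, 0.58 for Drd1 with Adra2c and -0.54 for Adra1b with Adra2c, and the last missed the threshold without UCMS replicate 1 (r = -0.59). In hippocampus the strongest pairs were Drd1 with Adra1d (r = -0.69) and Drd5 with Adra1d (r = 0.68), with adjusted p of 0.024 and 0.025 by permutation and rho of -0.48 and 0.55. Without the 2 farthest libraries r was -0.38 and 0.61. Both missed the threshold without UCMS replicate 4, with r of -0.52 and 0.59. No receptor's level in one region was shown to be related to its level in another, as 0 of 25 relations passed. The smallest adjusted p, by permutation, was 0.15, for Adra1d in hypothalamus and hippocampus (r = -0.66, unadjusted p = 0.006). With 16 mice, a relation is not excluded.

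**Figure D3:**
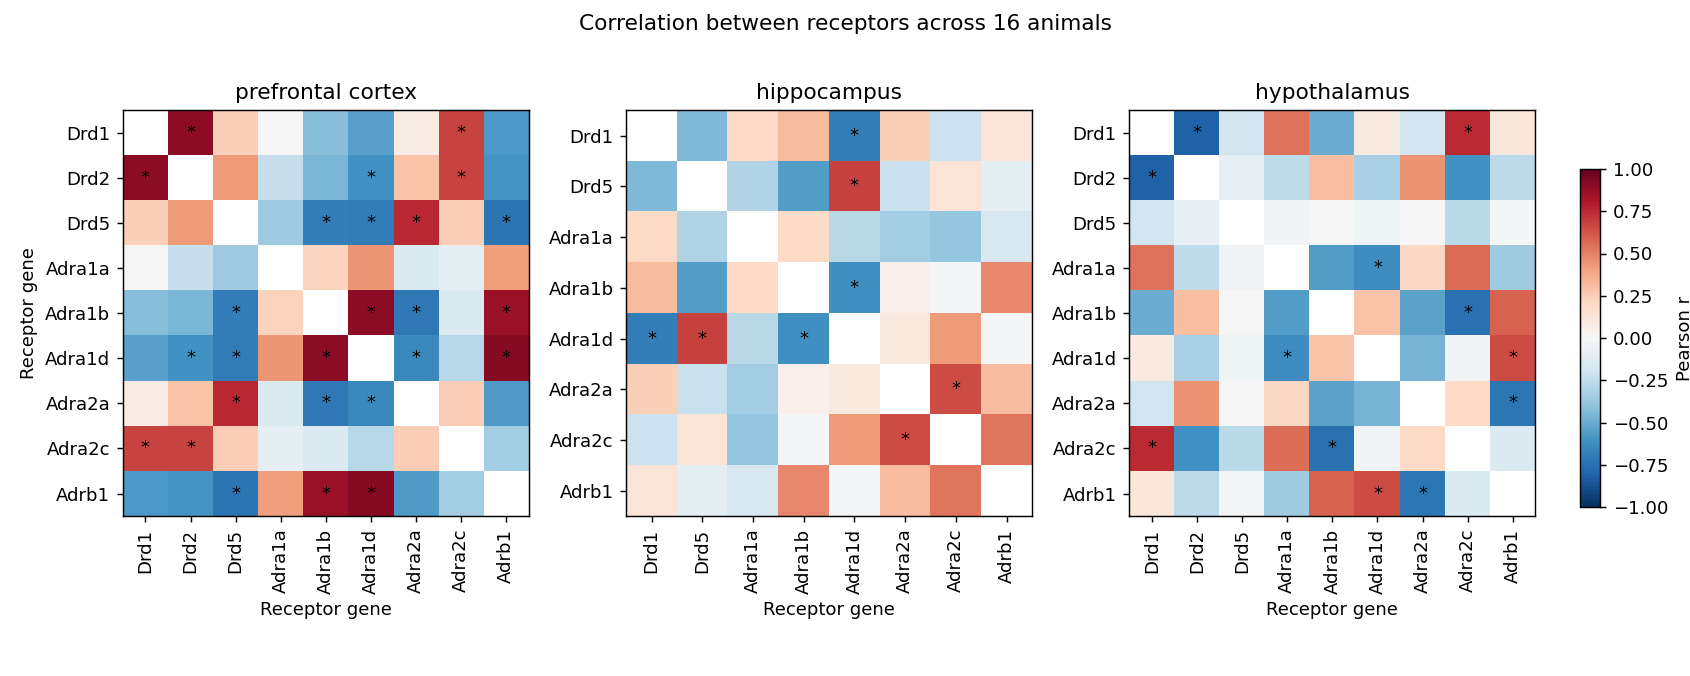
Pearson r (colour scale from -1 to 1) between receptor genes across 16 animals, after subtracting group means, in prefrontal cortex, hippocampus and hypothalamus; an asterisk marks an adjusted p under 0.05. Drd1 and Drd2 are positive in prefrontal cortex (0.89) and negative in hypothalamus (-0.81).

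Some receptors correlated with the markers of particular cell types across mice. In bulk tissue, fewer cells of a type and less RNA per cell cannot be told apart. Scores are the mean z of a list's markers, and no list holds a receptor described here. The 6 planned lists were striatal projection neurons, thalamic neurons, myelin, red blood cells, choroid plexus, and meningeal and fibroblast genes. For them 156 relations were tested and 15 passed. With the lists outside that plan added, 14 in all, 364 relations were tested and 40 passed. An adjusted p for a list outside the plan is over the 364 relations. With 6 lists 9 of 54 relations passed in prefrontal cortex (16.7%), where 2.38% of the relations of all genes with these scores had an absolute r as high as the weakest of them. In hippocampus it was 1 of 48 (2.08%) against 1.11%, and in hypothalamus 5 of 54 (9.26%) against 6.15%. With 14 lists the shares were 16.7% (21 of 126) against 4.21%, 7.14% (8 of 112) against 4.35% and 8.73% (11 of 126) against 7.67%, in the same order of regions. With all libraries, the receptors of hippocampus and hypothalamus were thus closer to all genes than those of prefrontal cortex. That contrast depends on control replicate 2 of prefrontal cortex. Without it, 4 of 54 relations with the 6 lists passed there, and the matching share of all genes was not computed. The part of tissue makeup in these receptor levels was not tested.

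In prefrontal cortex Drd1 and Drd2 tracked the striatal projection neuron score, with r = 0.95 and 0.96 (rho 0.95 and 0.96, permutation p = 1e-05, the smallest possible, adjusted p = 0.00052 for each). Without the 2 libraries farthest from the median, r was 0.92 and 0.95. Among all genes tested 0.127% and 0.106% had an absolute r with this score as high. Adra2c also tracked it (r = 0.76, rho 0.69, adjusted p = 0.020 by permutation), though not past the threshold without control replicate 6 (r = 0.68). In that region 19 of the 20 striatal markers were listed, and their summed level ran from 8.47 to 10.8 in controls and from 8.60 to 10.7 in UCMS, so the groups covered nearly the same range. The marker Penk, which encodes the enkephalin precursor, ran from 4.29 to 8.61, and Adora2a, an adenosine receptor of the same neurons as Drd2, from 2.28 to 6.96.

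In hypothalamus Drd2 followed the score of midbrain and brainstem catecholamine neurons (r = 0.85, rho 0.85, permutation adjusted p = 0.0030 over 364 relations), and r was 0.90 without the 2 farthest libraries. Of the 12 markers 7 were listed, and their summed level ran from 6.01 to 8.52 in controls and from 6.07 to 8.20 in UCMS. Slc6a3, the dopamine transporter, ran from 1.04 to 6.26 and Th, the rate-limiting enzyme of dopamine synthesis, from 3.48 to 5.75. Dbh and Slc6a2, which mark noradrenaline neurons, were among those not listed. Against the striatal score Drd2 was negative (r = -0.74) and Drd1 positive (r = 0.74), each with adjusted p = 0.020 by permutation and rho of -0.78 and 0.70. Without UCMS replicate 6 both missed the threshold adjusted over the 156 relations (adjusted p = 0.052 by permutation), while adjusted over the 364 relations both passed in 16 of 16 cases with 1 library left out.

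Adra1b in hypothalamus followed the thalamic neuron score (r = 0.93, rho 0.80, permutation adjusted p = 0.00052), with r = 0.79 without the 2 farthest libraries. Thalamic markers summed to between 8.03 and 9.22 in controls and between 7.96 and 9.92 in UCMS, and 11 of 12 were listed. Adra1b was also highest in UCMS replicate 1 (6.15), the library with the highest thalamic sum. Adra1d in hypothalamus was negative against the hypothalamic neuron score (r = -0.74, rho -0.81, permutation adjusted p = 0.017), whose 20 markers summed to between 10.7 and 11.7 in controls and between 10.2 and 11.7 in UCMS.

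In hippocampus Drd5 followed the hippocampal neuron score (r = 0.92, rho 0.71, permutation adjusted p = 0.0027), as did Adra1d (r = 0.77, adjusted p = 0.014 by permutation). Only 0.0285% of genes had an absolute r with that score as high as Drd5. Its markers summed to between 8.52 and 8.90 in controls and between 8.43 and 8.90 in UCMS. Drd5 was negative against the thalamic score (r = -0.78, adjusted p = 0.020 by permutation), and without UCMS replicate 6 r was -0.68 and missed the threshold. Adrb1 followed the astrocyte score (r = 0.87, rho 0.81, permutation adjusted p = 0.0029), whose markers summed to between 10.8 and 10.9 in controls and between 10.8 and 11.1 in UCMS.

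**Figure D4:**
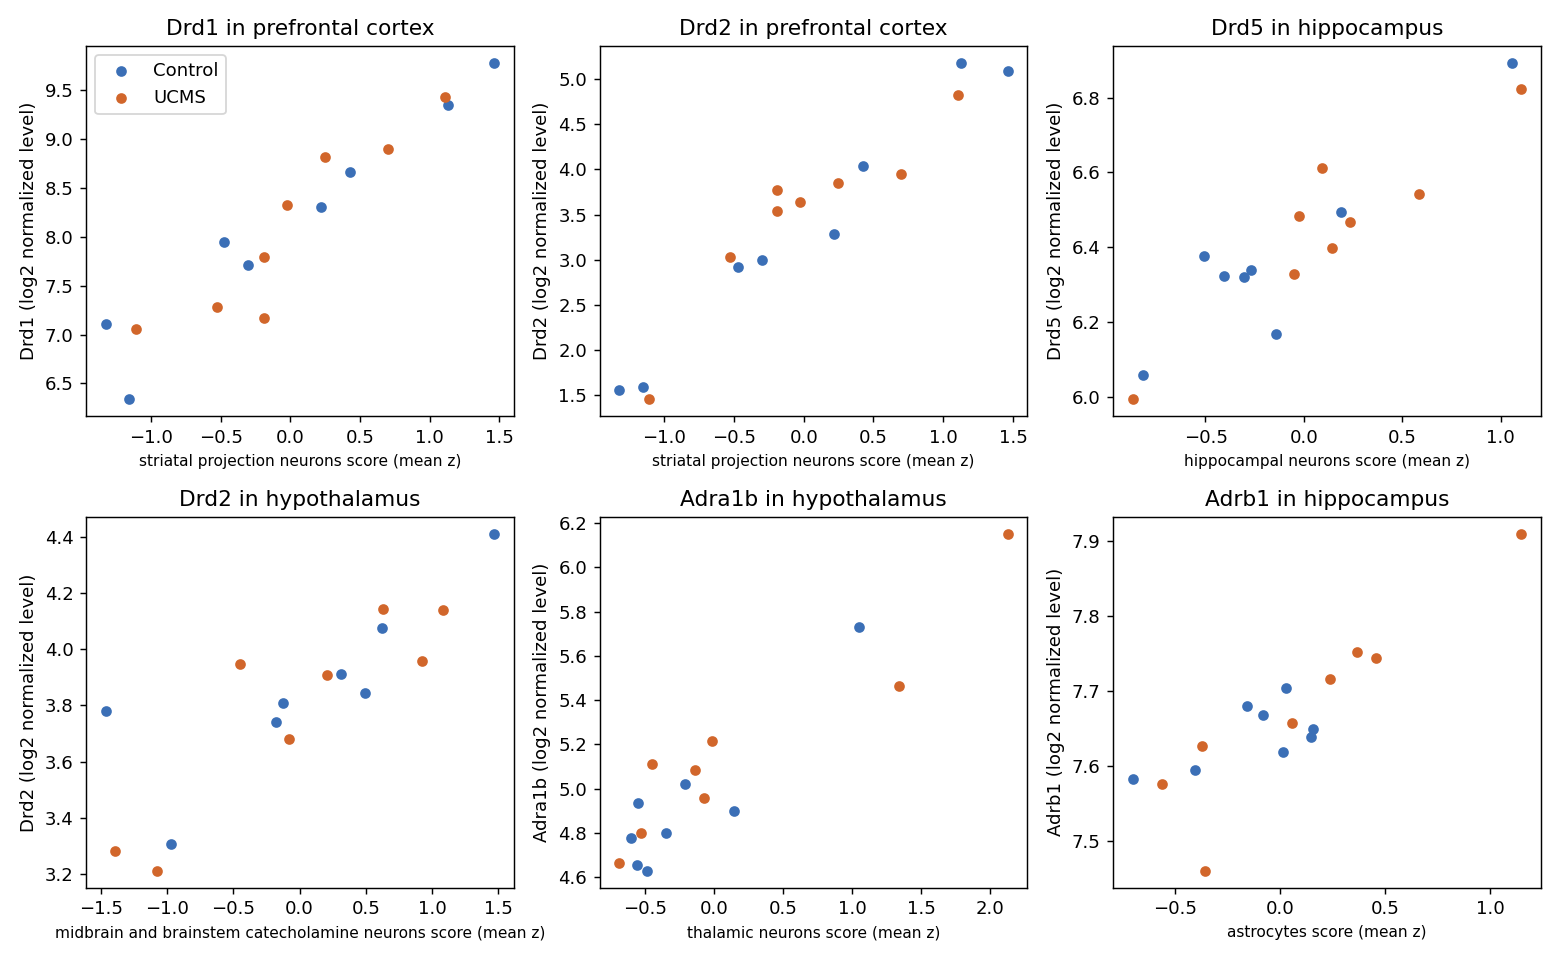
Log2 normalized level of a receptor gene (vertical axes) against a cell type marker score (horizontal axes, mean z of the list) in the named region; points are libraries, 8 control (blue) and 8 UCMS (orange). Control and UCMS points are interspersed, with r of 0.95 for Drd1 and 0.96 for Drd2 in prefrontal cortex, 0.92 for Drd5 in hippocampus, 0.85 for Drd2 and 0.93 for Adra1b in hypothalamus and 0.87 for Adrb1 in hippocampus.

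In prefrontal cortex Adra1b, Adra1d and Adrb1 correlated with the cortical neuron score (r = 0.84, 0.89 and 0.80), and without control replicate 2 r was 0.63, 0.42 and 0.46, each past the threshold no longer. Their negative relations with the choroid plexus score (r = -0.75, -0.86 and -0.80) became -0.32, -0.25 and -0.44 without it. Some other relations of these receptors held without that library. Adra1d and Adrb1 correlated with the endothelial score (r = 0.78 and 0.84, rho 0.75 and 0.83, adjusted p = 0.0032 and 0.0058 by permutation), with r of 0.73 and 0.74 without it. Adra1d correlated with the microglia score (r = 0.84, rho 0.84, adjusted p = 0.0031 by permutation), with r of 0.74 without it. These 3 relations passed in 16 of 16 cases with 1 library left out. Adra1b and Adrb1 also correlated with the microglia score, and for them r fell to 0.63 and 0.64 without control replicate 2. The summed level of the 10 endothelial markers ran from 8.01 to 8.60 in controls and from 8.23 to 8.48 in UCMS, and that of the 10 microglia markers from 8.81 to 9.14 and from 8.95 to 9.17. Adra2a was negative against the cortical score (r = -0.73, adjusted p = 0.0064 by permutation), and r was -0.70 without that library, when it missed the threshold.

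The genes most like each receptor across the 16 libraries of a region were named by the highest r, as a description. For Drd1 in prefrontal cortex they were Strn (0.97), Rgs9 (0.96) and Pde10a (0.96), and for Drd2 there Slc35d3 (0.97), Lrrc10b (0.97) and Penk (0.97). Of these, Rgs9, Pde10a and Penk are in the striatal projection neuron list, so they are not independent of that score. For Drd2 in hypothalamus they were Slc18a2 (0.93), Ret (0.91) and Ddc (0.90), of which Slc18a2 and Ddc are also in the catecholamine neuron list. For Adra1b in hypothalamus they were Ntng1 (0.93), which is in the thalamic neuron list, Rgs4 (0.93) and Avpi1 (0.93). For Drd5 in hippocampus they were Matn2 (0.97), Golm1 (0.94) and Trim2 (0.92). Drd5 in hypothalamus had no close companion, its nearest being Mfhas1 (0.80).

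The other genes of these pathways did not pass the test in any region (limma, adjusted over all genes). Of genes for catecholamine synthesis, transport and breakdown, 7 of 15 were tested in prefrontal cortex (3 higher and 4 lower in UCMS by their means), 7 in hippocampus (2 and 5) and 12 in hypothalamus (3 and 9), with median differences of -0.09, -0.07 and -0.07. Of 30 genes for stimulatory and inhibitory G proteins and cAMP signalling, 0 were called in each region. In hippocampus 2 of the 30 had an unadjusted limma p under 0.05, as did 2.95% of all genes tested there. They were Rapgef3, a cAMP-activated exchange factor (0.18, SE 0.08, limma unadjusted p = 0.0317, adjusted p = 0.990), and Adcy1, an adenylyl cyclase (0.13, SE 0.06, unadjusted p = 0.0347, adjusted p = 0.990). Among genes for Gq and phospholipase C signalling 11, 11 and 12 of 14 were tested in prefrontal cortex, hippocampus and hypothalamus, and among genes for receptor desensitisation and partner proteins 17, 18 and 17 of 18. In both lists 0 were called and 0 had an unadjusted p under 0.05. Of 5 other catecholamine receptors, 2, 1 and 1 were tested and 0 were called.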

How the data were processed

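RNA was measured by directional sequencing after ribosomal RNA depletion, from 100 ng of total RNA, per the labels' protocols. Per the submitters' processing notes, reads were placed on GRCm38.p4. Which aligner, counter and normalization were used is not given in these sources. For each tissue the authors deposited a table with values read as log2 normalized levels. That scale and the normalization within each table were inferred from the range and from near-equal library medians. The depth is unknown, and 0 columns lacked a sample.

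The members and the gene lists were chosen with earlier results of these data known. Genes in the lowest 10% by mean level were left out of each table. All listed members passed. UCMS and control were compared with limma 3.58.1 in R 4.3.3 with a trended prior, and p-values were adjusted over all genes at 0.05. Correlations used numpy 2.4.6 and 100000 permutations in Python 3.11.15. All 9 members are named, and beside them the 3 most alike genes per member and region and the 2 lowest p-values per pathway list, of which the text gives a selection. Some named items are not reported here. The nature of the replicates beyond separate mice is not stated. The limma step was tested on simulated data. Alternatives covered the filter, the trend, an exact permutation test, marker scores as covariates, hemoglobin-rich libraries, the replicate block and each library left out.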

Additional observations from a re-analysis of the deposited data

Results flagged for a closer look

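Of 52 groups of 8 libraries, 5 (9.62%) held 1 library far from the others by Dixon's 95% criterion, which chance meets in about 1 in 20 groups. In prefrontal cortex 3 of them were control replicate 2, with Drd5 at 5.34 (next highest 3.95), Adra1b at 4.30 (next lowest 5.36) and Adra1d at 4.20 (next lowest 5.91). Adra1b was low in UCMS replicate 4 of hippocampus (3.65, next lowest 4.67) and high in control replicate 5 of hypothalamus (5.73, next highest 5.02). The part of tissue makeup in these values was not tested.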

How the results depend on the processing

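No gene was called in any of the 7 comparisons under any alternative, and 0 of 1464 member differences computed over all settings passed (smallest limma adjusted p = 0.70). The smallest unadjusted limma p of these was 0.00963, for Adra1a in hypothalamus without UCMS replicate 4. Whether the replicate numbers pair mice is not stated. Deviations of same-numbered control and UCMS libraries correlated between -0.45 and 0.55. They were not compared with differently numbered libraries, so these values do not settle it. A fit with the replicate block called 0 genes in 7 comparisons, its smallest adjusted p for a receptor being 0.89. Pairs past the threshold numbered 6 to 15 in prefrontal cortex, 1 to 4 in hippocampus and 4 to 8 in hypothalamus when 1 library was left out, and 2 in hippocampus on raw levels. Marker score relations numbered 4 to 11, 0 to 2 and 3 to 8. The low counts in prefrontal cortex came without control replicate 2. The lowest hippocampus counts came without UCMS replicate 4 (pairs) and UCMS replicate 6 (scores). Receptor differences, all uncalled, that changed sign under another setting were these. With the cortical neuron score as a covariate the difference was -0.12 for Adra1b (prefrontal cortex), -0.014 for Adra1a (prefrontal cortex), 0.18 for Adra2a (prefrontal cortex), 0.0068 for Drd1 (prefrontal cortex), 0.19 for Drd5 (prefrontal cortex). Without the hemoglobin-rich libraries the difference was -0.0060 for Adra1a (prefrontal cortex), -0.078 for Drd2 (prefrontal cortex), -0.11 for Adra2a (the mean of the brain regions), -0.019 for Adra2c (the mean of the brain regions), -0.020 for Drd5 (the mean of the brain regions), -0.32 for Adra1b (hippocampus minus prefrontal cortex), 0.23 for Adra2a (hippocampus minus prefrontal cortex), 0.26 for Drd1 (hippocampus minus prefrontal cortex), -0.053 for Adra1b (hypothalamus minus prefrontal cortex), 0.33 for Drd1 (hypothalamus minus prefrontal cortex), 0.19 for Drd2 (hypothalamus minus prefrontal cortex). With the myelin score as a covariate the difference was 0.015 for Drd1 (prefrontal cortex), -0.00068 for Adra2c (the mean of the brain regions), -0.024 for Adra1b (hippocampus minus prefrontal cortex), -0.035 for Adra2c (hippocampus minus prefrontal cortex), -0.031 for Drd1 (hypothalamus minus hippocampus). With the hippocampal neuron score as a covariate the difference was -0.035 for Drd5 (hippocampus). With the meningeal and fibroblast score as a covariate the difference was -0.021 for Adra1d (hypothalamus). With the thalamic neuron score as a covariate the difference was -0.019 for Adra1d (hypothalamus), -0.0049 for Adrb1 (hypothalamus). With 1 library left out the differences ran, by comparison, as follows. For prefrontal cortex: Adra1b -0.12 to 0.17, Adra1a -0.028 to 0.085, Adra1d -0.011 to 0.39, Adra2a -0.17 to 0.14, Adra2c -0.025 to 0.11, Adrb1 -0.0055 to 0.20, Drd1 -0.31 to 0.18, Drd2 -0.078 to 0.47, Drd5 -0.17 to 0.21. For hippocampus: Adra1b -0.0012 to 0.23, Adra2c -0.012 to 0.10. For hypothalamus: Adra1d -0.12 to 0.33, Adrb1 -0.014 to 0.17, Drd2 -0.15 to 0.0061. For the mean of the brain regions: Adra1a -0.051 to 0.0027, Adra2a -0.049 to 0.069, Adra2c -0.022 to 0.037. For hippocampus minus prefrontal cortex: Adra1b -0.17 to 0.23, Adra1a -0.017 to 0.070, Adra1d -0.32 to 0.096, Adra2a -0.24 to 0.067, Adra2c -0.069 to 0.087, Adrb1 -0.16 to 0.049, Drd1 -0.36 to 0.12, Drd5 -0.13 to 0.32. For hypothalamus minus prefrontal cortex: Adra1d -0.49 to 0.043, Adra2c -0.25 to 0.0062, Adrb1 -0.17 to 0.083, Drd1 -0.26 to 0.26, Drd2 -0.60 to 0.011. For hypothalamus minus hippocampus: Adra1d -0.25 to 0.28, Adrb1 -0.060 to 0.14, Drd1 -0.14 to 0.16. The cause of these sign changes was not tested.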
